A study of Mus musculus with 6 samples.

Results

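The genes described here are 9 that cut, ubiquitinate or glycosylate Notch receptors and their ligands: Adam10, Adam17, Psen2, Ncstn, Aph1a, Lfng, Mfng, Rfng and Mib1. They were taken as every array probe whose gene name is one of the 9, which gave 13 of 55681 probes and 9 of 34821 gene names. The 6 samples were mammary cells of virgin female mice, each hybridised to a two-colour Agilent array. Dll1-high cells (1 array) and Dll1-low cells (1 array) were the mCherry+ and mCherry- fractions of CD24+ CD29-high cells, labelled as mammary stem cells (MaSC), from C57/B6 mice with the Dll1-mCherry reporter. F4/80+ macrophages came from Dll1 conditional knockout mice (KO, strain C57/B6:cKO-Dll1, 2 arrays) and from their C57/B6 wild type littermates (WT, 2 arrays). The labels give no age or treatment, do not say which cells or exons lose Dll1 or what drives the deletion, and do not say whether replicates are separate animals or pools. The p-values below therefore measure only the spread between these samples, which may be technical.

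Notch receptors are cut at the cell surface by ADAM proteases once a ligand on a neighbouring cell binds and pulls. The stub that remains is cut within the membrane by gamma-secretase, a complex of a presenilin, nicastrin, Aph1 and a small stabilising subunit, which frees the intracellular domain that enters the nucleus. Fringe enzymes extend O-fucose sugars on the receptor's EGF repeats and so change its response to Delta and Jagged ligands, while Mind bomb ubiquitinates the ligand and drives the endocytosis that supplies the pull.

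Because 4 of the genes were read by a pair of probes, the probe sequences show which readings are independent. Each line gives the first 30 of 60 bases, 5′ to 3′, with the position of the whole probe on mm9 as the array files annotate it. No annotation of mm9 was used here, so the exon or UTR under a probe is not stated. The Adam17 pair lies on nearly the same bases, 52 of 60 being shared, and capitals mark the shared bases within the printed stretch. All other letters are lower case.
Adam10 (chr9:70627859-70627918, plus strand): gaccagtgagatctaatactactgtcagtt
Adam17 brighter probe (chr12:21329378-21329437, minus strand): ttgatgtcTGTGAATTACTAATAAAGCTAC
Adam17 other probe (chr12:21329370-21329429, minus strand): TGTGAATTACTAATAAAGCTACGCACATGT
Psen2 (chr1:182157610-182157669, minus strand): gcgtcactggatgcaggtgtatagttttac
Aph1a brighter probe (chr3:95702146-95702205, plus strand): gagcaatggttcatgggagtgactagcctc
Aph1a other probe (chr3:95700163-95700222, plus strand): ttcctgaacccctggtatgaggctagcctg
Lfng (chr5:141091224-141091283, plus strand): tttggaaagctggacaatgagtgccttagt
Mfng brighter probe (chr15:78586332-78586391, minus strand): atgaaggaaaggccaagacaatctaaagtt
Mfng other probe (chr15:78586430-78586489, minus strand): atagaagggtttctggaatacattcccagc
Rfng brighter probe (chr11:120642060-120642119, minus strand): tttacggggaggccgaggggagcggttgca
Rfng other probe (chr11:120643797-120643856, minus strand): cagtttcatgagcacagcagagcgcgttcg
The starts of the Mfng pair are 98 bases apart, those of the Aph1a pair 1983 and those of the Rfng pair 1737, so none of these pairs overlaps. The array design assigns the Aph1a pair to different transcript variants of the gene.

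Levels are given as the log2 ratio of the sample (Cy5) over a universal mouse reference RNA from 11 cell lines (Cy3), so 0 means the level of the reference. A gene is read by its brightest probe, and levels of different probes are not compared. The Cy5 signal was well above background for 86.0% and 88.1% of spots on the Dll1-high and Dll1-low arrays, and for 47.4% to 71.9% on those of macrophages. CD24+ CD29-high cells and macrophages lay on different slides, read with different versions of the scanner software, and effects of slide and of cell type cannot be told apart. Of 10 basal markers, 7 were called higher in the CD24+ CD29-high cells, with array medians of 3.77 and 3.78 against 0.36 to 0.63 on the macrophage arrays, though the brightest Trp63 probe was highest, at 3.23, on the array of WT replicate 1. Of 11 macrophage markers, 6 were called lower in the CD24+ CD29-high cells, with array medians of -0.37 and -0.22 against 1.85 to 3.98. WT replicate 1 stood apart from the other macrophage arrays: its macrophage median was the lowest of the 4, its fibroblast median was 1.275 against -1.32 to -0.78 on the other 3, and its correlation with them over all probes was 0.43 to 0.68, against 0.94 between KO replicate 2 and WT replicate 2. Dll1, the gene of the reporter and of the knockout, read 3.94 in Dll1-high cells, against 3.26 in Dll1-low cells. In macrophages it read 0.80 and 2.25 in KO replicates 1 and 2, against 0.78 and 3.24 in WT replicates 1 and 2, so the KO and WT values overlapped.

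Manic fringe was the member that differed most between the cell types. In limma's test over 47727 probes (Benjamini-Hochberg adjusted p under 0.05), both Mfng probes were called, as lower in the CD24+ CD29-high cells than in macrophages, and none of the other 11 member probes was. That is 2 of 13 probes, or 1 of 9 genes, where 3.73% of all probes and 6.35% of all genes were called lower. In either direction 7.24% of all probes and 11.8% of all genes were called. The arrays of the cell types did not overlap for 5 of 9 genes, Psen2, Lfng and Mfng with the CD24+ CD29-high cells below and Ncstn and Rfng with them above, where 40.1% of all genes did not overlap. The median difference over the 9 genes was -0.49, against -0.05 over all 20334 genes. That median is the difference of Lfng, which was not called, and it depends on loess. With median centring each of the 9 differences was higher (Lfng -0.16), and the median over all probes was 0.139 in place of -0.028.

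**Figure D1:**
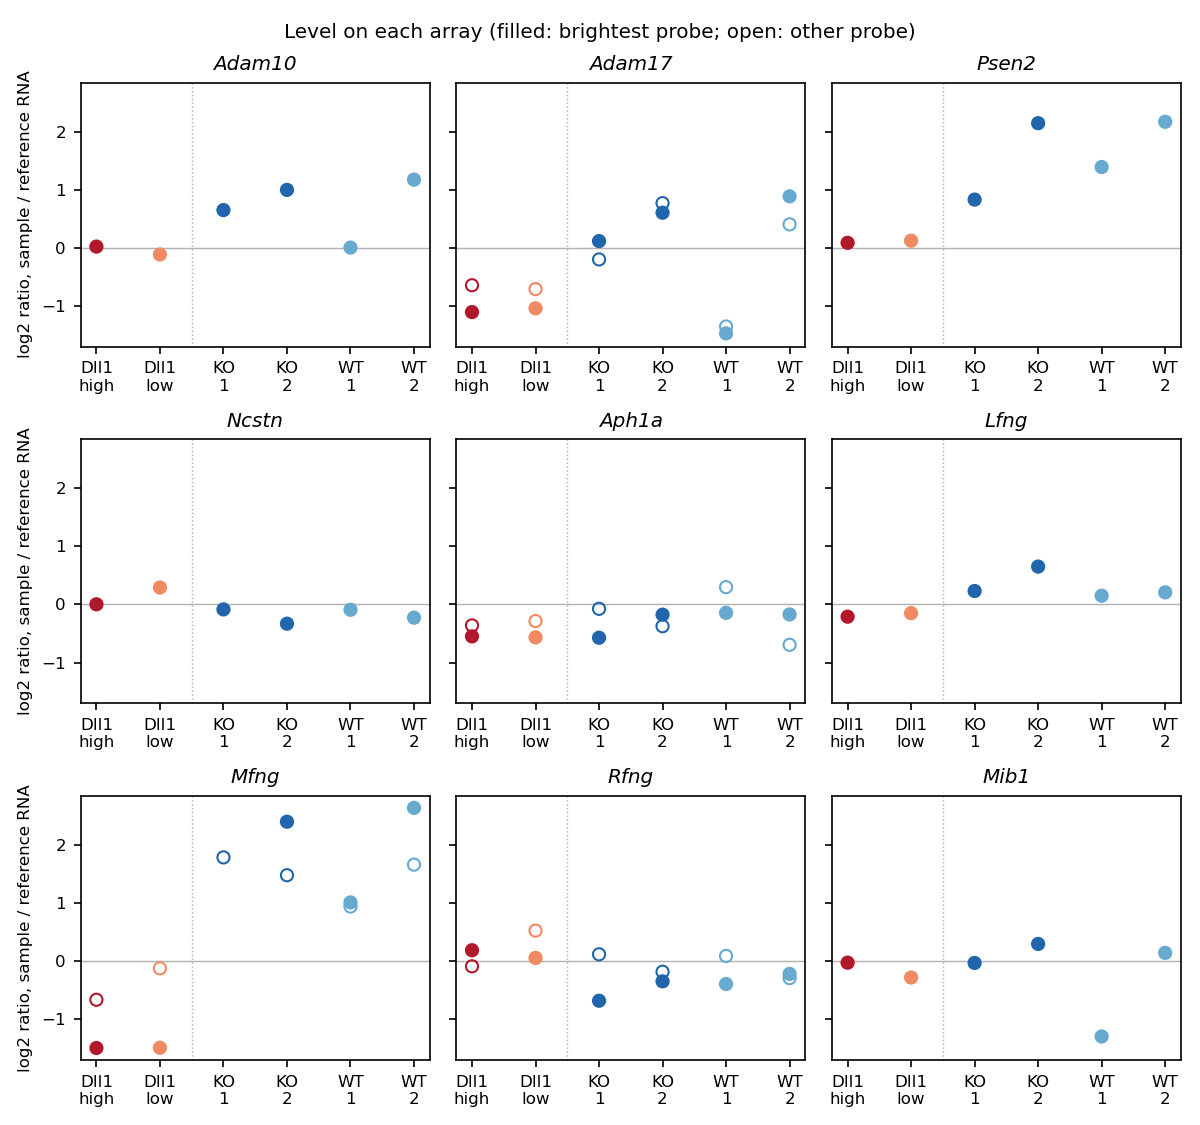
The log2 ratio of sample over reference RNA (y axis) on each of the 6 arrays (x axis), for the 9 genes, with filled points for the brightest probe and open points for the other probe; KO and WT are macrophages, numbered by replicate. Mfng lies at -1.50 for Dll1-high and -1.49 for Dll1-low cells, against 1.01 to 2.64 on the 3 macrophage arrays where its brightest probe gave a value.

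The ADAM proteases make the first cut of the bound receptor. Adam10, the main protease for ligand-dependent cutting of Notch, read 0.02 in Dll1-high and -0.11 in Dll1-low cells, against 0.65 and 1.00 in KO and 0.00 and 1.18 in WT macrophages. WT replicate 1 read between the pair of CD24+ CD29-high values, so the cell types overlapped, while the other 3 macrophage arrays lay above them. Its difference was -0.75 (95% interval -1.59 to 0.09, limma adjusted p 0.298), and without WT replicate 1 it was -0.99 and was called (limma adjusted p 0.0225). Leaving out that array raised the calls over all 47727 probes from 3454 to 8542, so a call gained there is not particular to Adam10. The Adam10 spot of WT replicate 1 gave a raw Cy5 intensity of 855, against 3691.5 to 6095.5 on the other macrophage arrays, with Cy3 at 4568 against 2486.5 to 3930.5. Low raw Cy5 on that array was not particular to Adam10. It was also the lowest for Psen2 (738 against 1936.5 to 3190) and the brighter probes of Aph1a (484 against 1215.5 to 1450) and Rfng (457 against 882 to 1486.5). The same held for both Adam17 probes (113 against 272 to 444, and 107 against 222 to 331). It also held for both Mfng probes (461 against 2225 to 2967, and 373 against 884 to 2322). WT replicate 1 was not the lowest for Lfng (182.5 against 180 to 199), Ncstn (110 against 74 to 132) or Mib1 (120 against 61 to 255). Nor was it for the other probes of Aph1a (225 against 143.5 to 394) and Rfng (141.5 against 79.5 to 139).

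Adam17, which sheds growth factors and cytokines and can also cut Notch, had the widest spread among macrophages of the genes with values on all arrays. Its brighter probe read -1.11 in Dll1-high and -1.04 in Dll1-low cells, against 0.12 and 0.61 in KO and -1.475 and 0.89 in WT macrophages. WT replicate 1 was below both arrays of CD24+ CD29-high cells and the other 3 macrophage arrays were above them. The difference was -1.11 (95% interval -2.73 to 0.51, limma adjusted p 0.447), and it was -1.61 and called without WT replicate 1 (limma adjusted p 0.0109). That is again the setting in which 8542 of 47727 probes were called, against 3454 with all arrays. The other, overlapping probe gave -0.645 and -0.71 in Dll1-high and Dll1-low cells, against -0.20 and 0.77 in KO and -1.36 and 0.40 in WT macrophages, and a difference of -0.58 (limma adjusted p 0.699). Without WT replicate 1 this probe gave -1.003 and was not called (limma adjusted p 0.0785). Both probes placed WT replicate 1 lowest.

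Of the gamma-secretase subunits, Psen2, a presenilin that forms the catalytic core, differed most. It read 0.09 in Dll1-high and 0.12 in Dll1-low cells, against 0.83 and 2.15 in KO and 1.39 and 2.17 in WT macrophages. All 4 macrophage arrays lay above both arrays of CD24+ CD29-high cells. The difference was -1.53, or 2.89-fold (95% interval -2.55 to -0.51), and did not pass the adjusted threshold (limma adjusted p 0.0958). It passed in the Cy5 channel alone (adjusted p 0.044) and without KO replicate 1, the lowest macrophage array, where it was -1.80 (adjusted p 0.0357). Adjusted p was 0.464 without the Dll1-high array and 0.442 without the Dll1-low array. With median centring the difference was -0.78 (adjusted p 0.711), and WT replicate 1, at -0.87, then lay below both arrays of CD24+ CD29-high cells.

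Ncstn encodes nicastrin, the subunit that receives the substrate. It read 0.00 in Dll1-high and 0.29 in Dll1-low cells, against -0.09 and -0.33 in KO and -0.09 and -0.23 in WT macrophages. The groups did not overlap, but the difference was 0.33 (95% interval -0.05 to 0.72, limma adjusted p 0.321), and Cy5 was not well above background on replicate 2 of both genotypes. Aph1a, the scaffold subunit, read -0.55 and -0.57 in Dll1-high and Dll1-low cells, against -0.57 and -0.18 in KO and -0.14 and -0.17 in WT macrophages with its brighter probe. KO replicate 1 lay at the level of the CD24+ CD29-high cells and the other 3 macrophage arrays above it. The difference was -0.29 (limma adjusted p 0.445), and -0.11 (limma adjusted p 0.911) with the probe for the other transcript variant, on which macrophages ranged from -0.695 in WT replicate 2 to 0.30 in WT replicate 1.

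Of the Fringe genes, Mfng and Lfng lay below the macrophages and Rfng above them in the CD24+ CD29-high cells, and Mfng was called. Its brighter probe read -1.50 in Dll1-high and -1.49 in Dll1-low cells, against 2.40 in KO replicate 2 and 1.01 and 2.64 in WT replicates 1 and 2. The spot of KO replicate 1 was marked as not uniform by the scanner software and was left out, so this probe was fitted over 3 macrophage arrays. After loess, every measured macrophage array was above the reference RNA and both arrays of CD24+ CD29-high cells were below it. Mfng was 11.4-fold lower in the CD24+ CD29-high cells, a difference of -3.51 (SE 0.53, 95% interval -4.88 to -2.15, limma adjusted p 0.0257).

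The other Mfng probe had a value on every array. It read -0.665 in Dll1-high and -0.12 in Dll1-low cells, against 1.79 and 1.48 in KO and 0.94 and 1.66 in WT macrophages. These groups did not overlap either, with WT replicate 1 again the lowest macrophage array. The difference was -1.86, or 3.64-fold lower (SE 0.293, 95% interval -2.58 to -1.15, limma adjusted p 0.0188). The probes thus gave the same direction and fold changes that differed more than 2-fold, from stretches of the gene 98 bases apart.

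The Mfng call depended on the arrays and the signal column used. Its direction was the same in all 13 alternatives and it was called in 5 of them. These include leaving out KO replicate 1, where this probe had no value, and dropping the filter on dim probes. Both left the Mfng values as they were, at a difference of -3.51, so those calls are no separate check. Adjusted p was 0.0632 with the scanner software's processed signals, 0.226 without the Dll1-high array, 0.213 without the Dll1-low array, 0.0941 without KO replicate 2 and 0.0724 without WT replicate 2. Without the same arrays the other probe gave adjusted p-values of 0.202, 0.101, 0.0662 and 0.0611, and with the processed signals 0.111. With each array centred on its median in place of loess the difference was -2.33 (adjusted p 0.386). WT replicate 1 then read -0.985, below the reference, against -1.37 in Dll1-high and -1.28 in Dll1-low cells. The other probe gave -1.01 (limma adjusted p 0.58) with median centring, and its groups overlapped. On it WT replicate 1, at -0.805, lay below Dll1-high (-0.529) and Dll1-low (-0.019) cells.

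Of 8 markers of B, T and NK cells, Cd79b, Ms4a1 and Cd3g were called lower in the CD24+ CD29-high cells and none higher. The array medians of this list were 0.49 in Dll1-high and 0.31 in Dll1-low cells, against 1.83 and 0.81 in KO and 0.90 and 0.91 in WT macrophages. Of 6 endothelial markers none was called, and their array medians were 1.36 and 1.64 in Dll1-high and Dll1-low cells, against 2.415 and 3.21 in KO and 3.74 and 4.49 in WT macrophages. The part of these markers in the Mfng difference was not tested, and in such bulk samples fewer cells of a type and less RNA per cell cannot be told apart. The genes with profiles closest in shape to that of the brighter Mfng probe were Bmf and Ltb, of 12550 genes compared. Each profile was taken minus its own mean, so the levels themselves were not compared. The root mean square differences over the 5 arrays where that probe had a value were 0.096 and 0.105.

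Lfng, lunatic fringe, read -0.21 in Dll1-high and -0.15 in Dll1-low cells, against 0.23 and 0.65 in KO and 0.15 and 0.21 in WT macrophages. Both arrays of CD24+ CD29-high cells lay below the reference and all 4 macrophage arrays above it. The difference was -0.49, or 1.41-fold (95% interval -0.95 to -0.04), and was not called (limma adjusted p 0.212). Rfng, radical fringe, read 0.19 in Dll1-high and 0.06 in Dll1-low cells, against -0.68 and -0.35 in KO and -0.39 and -0.22 in WT macrophages with its brighter probe. The order was the opposite of that of Lfng, again without overlap. The difference was 0.53, or 1.45-fold (95% interval 0.11 to 0.96), and was not called (limma adjusted p 0.148). Its other, dimmer probe read -0.09 and 0.53 in Dll1-high and Dll1-low cells, against 0.12 and -0.18 in KO and 0.09 and -0.29 in WT macrophages, with overlapping groups and a difference of 0.285 (limma adjusted p 0.608).

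Mib1, Mind bomb, which ubiquitinates Delta and Jagged ligands, did not separate the cell types. It read -0.03 in Dll1-high and -0.28 in Dll1-low cells, against -0.03 and 0.30 in KO and -1.30 and 0.14 in WT macrophages. On KO replicate 1 neither channel of this spot was above its local background, with Cy5 at 61 over 68 and Cy3 at 17.5 over 22, while Cy3 was 264 to 385 on the other 5 arrays, so that ratio carries no measured level. Of the measured macrophage arrays, WT replicate 1 lay below both arrays of CD24+ CD29-high cells and KO replicate 2 and WT replicate 2 lay above them. The difference was 0.13 without KO replicate 1 (limma adjusted p 0.94), and 0.07 with it (95% interval -1.08 to 1.22, limma adjusted p 0.972).

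**Figure D2:**
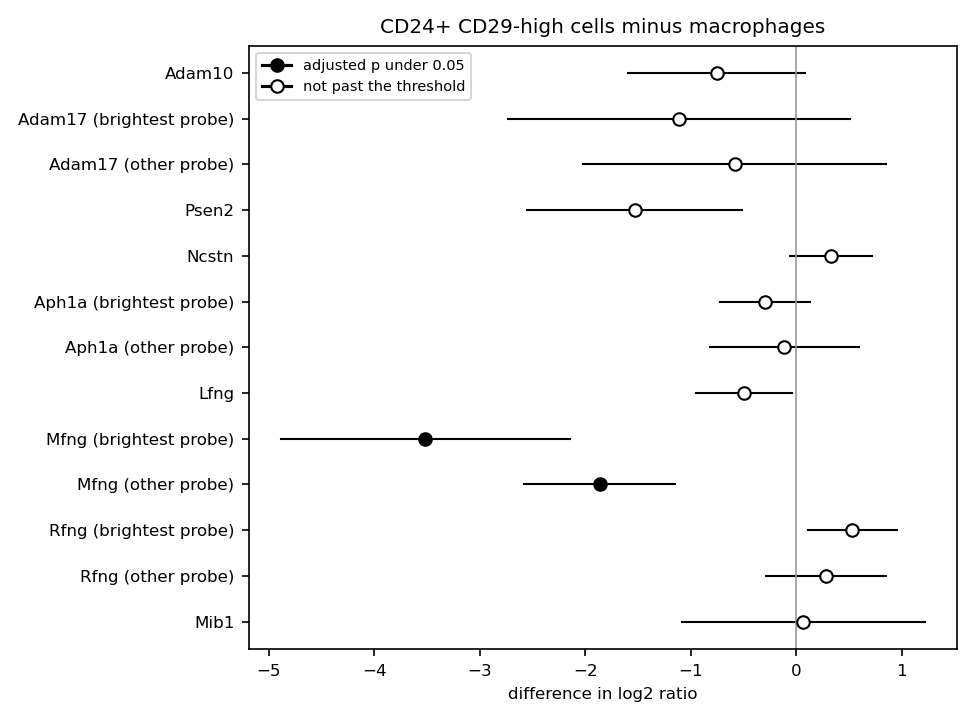
The difference in log2 ratio (x axis), CD24+ CD29-high cells minus macrophages, for each of the 13 probes (y axis), with 95% intervals from limma; filled points have an adjusted p under 0.05. The filled points are the Mfng probes, at -3.51 and -1.86, and the next largest difference is that of Psen2, at -1.53.

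The KO against WT comparison asked whether these genes differed in mammary macrophages of Dll1 conditional knockout mice. None of the 9 was called (limma adjusted p 0.9997 for each, over 34923 probes). Of all probes 0% were called, and 50, or 0.143%, had an unadjusted p under 0.05, none of them a member probe. The KO and WT arrays did not overlap for 2 of 9 genes, where 21.2% of all genes did not. Lfng was the one with KO above, at 0.23 and 0.65 against 0.15 and 0.21 in WT, a difference of 0.26 (95% interval -0.63 to 1.16). Aph1a was the one with KO below, at -0.57 and -0.18 against -0.14 and -0.17 in WT, a difference of -0.22 with a closest gap of 0.003 in slide row 2.

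Each row of the macrophage slide held 1 KO and 1 WT array, replicate 1 of each in row 1 and replicate 2 of each in row 2. With the row, and so the replicate number, as a block in the fit, none of the 9 was called either (limma adjusted p 0.972 to 0.994), and Mfng was -0.24, its difference within row 2. Adam17 differed by 1.59 in row 1 and -0.28 in row 2, around a fitted 0.655 (95% interval -1.75 to 3.06). Mib1 differed by 1.27 in row 1, where the KO spot was not above background, and by 0.15 in row 2, and Adam10 by 0.65 and -0.18. These values of row 1 rest on WT replicate 1, the array that stood apart. Without it, the fitted differences were -0.53 for Adam17 and -0.35 for Adam10. For Mib1 the value was -0.01, but this still used the KO spot of row 1, and the measured row 2 gave 0.15.

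The remaining genes differed little beside their intervals. Psen2 was -0.29 (95% interval -1.94 to 1.36), with -0.56 in row 1 and -0.02 in row 2. Mfng was 0.58 (SE 0.89) over 1 KO and 2 WT arrays. Its other probe, with all 4 arrays, gave 0.33 (95% interval -0.76 to 1.42), with 0.85 in row 1 and -0.18 in row 2. Rfng was -0.21 and Ncstn -0.05. The brightest-probe intervals reach beyond 2-fold in both directions for Adam10, Adam17, Psen2 and Mfng (-2.16 to 3.31). Those of Lfng and Mib1 pass 2-fold only above, and those of Aph1a and Rfng only below. Changes of that size in these directions thus lay within the intervals. The intervals do not say what size of change the test could have detected. That of Mib1 also used the KO spot of row 1, which was not above background. The 6 endothelial and 7 fibroblast markers all read lower in KO than in WT macrophages, where 9587 of 16693 genes read lower. Of 11 macrophage markers 10 read higher and 1 lower, and of 8 markers of B, T and NK cells 7 read higher and 1 lower. Basal markers were 6 higher and 4 lower, and luminal markers 3 higher and 4 lower. None of these markers was called, and their part in these values was not tested.

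**Figure D3:**
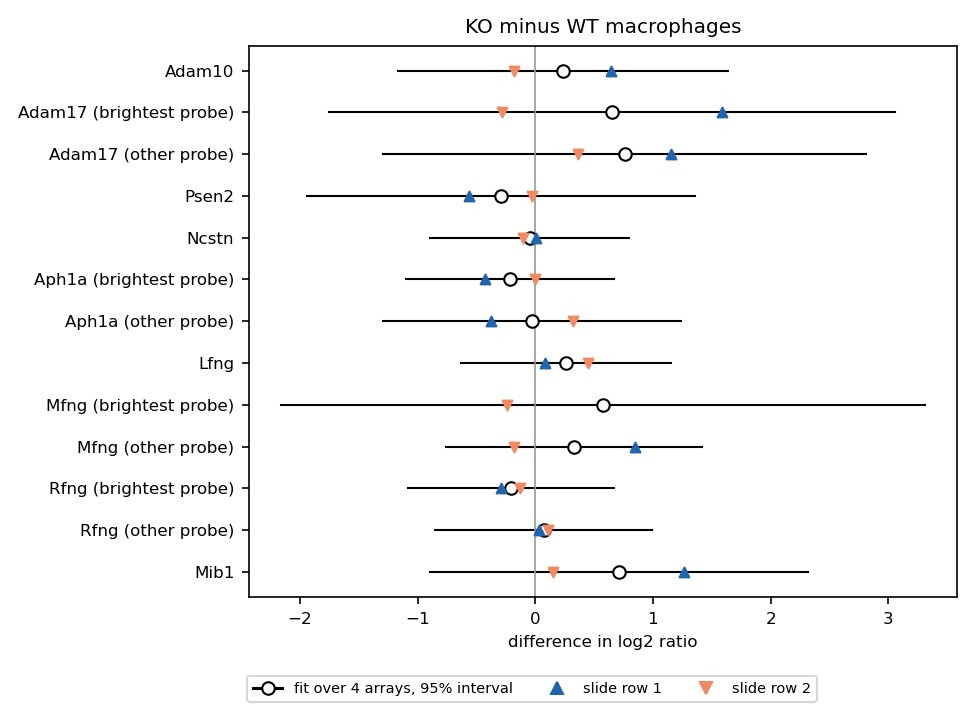
The difference in log2 ratio (x axis), KO minus WT macrophages, for each of the 13 probes (y axis), with open circles and 95% intervals from limma over the 4 macrophage arrays, and triangles for the difference within each row of the slide. Every interval spans 0, and the Adam17 brightest probe lies at 1.59 in row 1 and -0.28 in row 2.

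Dll1-high and Dll1-low cells were represented by 1 array each, so their difference has no replicate check. None of the 9 genes was 2-fold apart, where 0.25% of all genes and 0.155% of all probes were. As a measure of spot error, the SD over spots of the difference for the 399 probes spotted 10 times was 0.13 at the median and 0.259 at the 95th percentile. The differences of 8 of 9 genes, and of 10 of 13 probes, were smaller than 0.259, as were those of 77.0% of all genes and 76.8% of all probes. Dll1-high minus Dll1-low was 0.135 for Adam10, -0.065 for Adam17, -0.04 for Psen2, 0.02 for Aph1a, -0.06 for Lfng, -0.004 for Mfng, 0.13 for Rfng and 0.256 for Mib1. Ncstn was the gene beyond it, at -0.29. The dimmer probes of Mfng, at -0.54, and of Rfng, at -0.61, also lay beyond it, while the brighter probes of these genes did not. Dll1 differed by 0.68 between the same arrays with its brighter probe. Its other, dimmer probe differed by 0.14 (0.38 against 0.245), which is smaller than 0.259. Of 7 luminal and 7 fibroblast markers, 6 of each read lower in Dll1-high cells, with median differences of -0.22 and -0.565. Elf5, a luminal marker, was more than 2-fold apart, at -1.31. Also lower were 8 of 11 macrophage, 5 of 6 endothelial, 5 of 8 B, T and NK cell and 5 of 10 basal markers. Of all 20780 genes, 11193 read lower. The part of these markers in the differences of the 9 genes was not tested.

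Other genes of the pathway were counted in 5 lists, of which 62 of 63 genes were on the array. Of these, 3 were called higher and 6 lower in the CD24+ CD29-high cells, where 5.41% and 6.35% of all genes were called in these directions. In KO against WT macrophages none of the 62 was called, and none was 2-fold apart between Dll1-high and Dll1-low cells.

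Among 12 other secretase and shedding genes, Adam8, a sheddase of myeloid cells, read -3.29 in Dll1-high and -3.10 in Dll1-low cells, against 3.63 and 3.34 in KO and 2.45 and 3.47 in WT macrophages. It was lower by a difference of -6.42, the largest in these lists (limma adjusted p 0.000878). Adam19, another metalloprotease, was lower by a difference of -2.69 (limma adjusted p 0.00109). Bace1, the beta-secretase that cuts the amyloid precursor, was higher, at 0.87 in Dll1-high and 0.76 in Dll1-low cells, against -2.24 and -1.27 in KO and -0.62 and -1.33 in WT macrophages, with a difference of 2.18 (limma adjusted p 0.0381). The Bace1 call was lost without the Dll1-high array (adjusted p 0.295), the Dll1-low array (0.254), KO replicate 2 (0.103) or WT replicate 2 (0.102), while Adam8 and Adam19 stayed called with any 1 array left out.

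Among 13 regulators of ADAM10 and ADAM17, Tspan33, a tetraspanin that binds ADAM10, was the one called. It read -0.89 in Dll1-high and -0.70 in Dll1-low cells, against 3.60 and 3.61 in KO and 2.54 and 3.97 in WT macrophages, a difference of -4.23 (limma adjusted p 0.00378). The list's median difference was -0.24. Of 8 other genes of Notch glycosylation, Eogt, which adds O-linked N-acetylglucosamine to EGF repeats, was the one called. It read 2.58 in Dll1-high and 2.24 in Dll1-low cells, against 0.05 and -0.12 in KO and 0.17 and 0.10 in WT macrophages, a difference of 2.36 (limma adjusted p 0.00162). Both genes separated the cell types on every array, in opposite directions. Eogt stayed called with any 1 array left out, and Tspan33 was not called without the Dll1-high array (adjusted p 0.0712) or the Dll1-low array (0.0576).

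Of 20 genes of ligand and receptor ubiquitination and endocytosis, 3 were called, all lower in the CD24+ CD29-high cells. They were Dtx2, a Deltex ubiquitin ligase, at -1.65 (limma adjusted p 0.0113), Epn1, an epsin adaptor of ligand endocytosis, at -1.57 (limma adjusted p 0.00668), and Dnm2, a dynamin that severs endocytic vesicles, at -1.17 (limma adjusted p 0.00957). Of the 9 ligands and receptors that these enzymes act on, Jag2, a Jagged ligand, was called higher. It read 3.29 in Dll1-high and 3.08 in Dll1-low cells, against -0.20 and 1.1 in KO and 0.03 and 1.095 in WT macrophages, a difference of 2.68 (limma adjusted p 0.0226). None of these 4 genes was called without the Dll1-high array (adjusted p 0.0995 to 0.22) or without the Dll1-low array (0.0941 to 0.174). The 6 of 11 macrophage markers that were called were lower in the CD24+ CD29-high cells, like Adam8, Adam19 and Tspan33, while Mertk differed by 0.16. The 7 of 10 basal markers that were called were higher, like Bace1, Eogt and Jag2, while Trp63 differed by -0.67. The part of these markers in the values of the pathway genes was not tested.

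**Figure D4:**
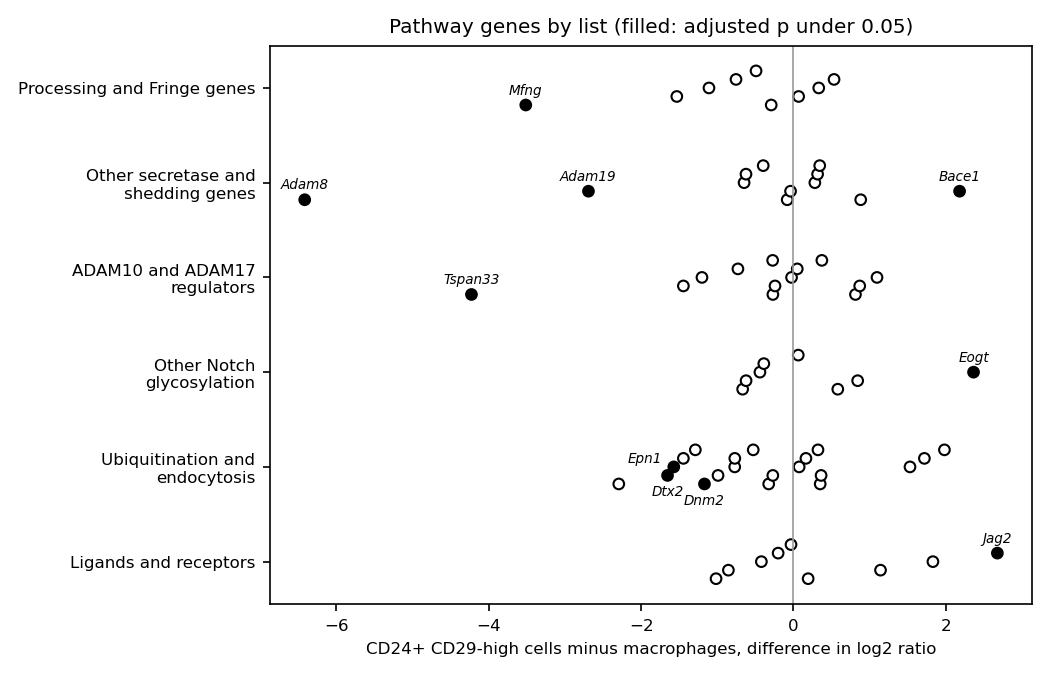
The difference in log2 ratio (x axis), CD24+ CD29-high cells minus macrophages, of the 9 genes and of the 62 other pathway genes in 5 lists (rows); each point is a gene's brightest probe, filled where the adjusted p was under 0.05. Adam8 lies lowest, at -6.42, and Jag2 highest, at 2.68; the vertical offset of points within a row has no meaning.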

How the data were processed

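The scanner files hold unprocessed intensity values of each spot and its local background, per the file headers. Those headers give Agilent Feature Extraction version 12.0.2.2 for macrophages and 11.0.1.1 for Dll1-high and Dll1-low cells, and the submitters' processing notes name version 11.0. Per the file headers, the processed signals are intensity values corrected by that software, and the log ratio is the log10 of sample over reference. Values in the authors' deposited table are log2 ratios in the same direction, not centred per gene, with column medians of -0.117 to 0.139. Samples carried Cy5 and the reference Cy3, per the labels' protocols, and no array had the dyes swapped, so a probe's own dye bias remains in its ratio.

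Median signals were corrected with normexp (offset 50) and normalized by loess within each array in limma 3.58.1 (R 4.3.3, with version 1.17.8 of data.table). Control spots (3671 of 62976 per array) and marked spots (415 to 896) were left out, and spots were averaged per probe. Macrophage files carry no gene names, so their probes were named through the same probe IDs in the other files. Of the 55681 probes, 27509 were named by accession and 3953 by symbol or synonym through RefSeq's gene table, and 24219 kept the array design's name.

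CD24+ CD29-high cells (2 arrays) were compared with macrophages (4 arrays), and KO with WT macrophages (2 arrays each), with lmFit and eBayes over all probes whose Cy5 signal was well above background on 2 or more arrays, and Benjamini-Hochberg adjustment at 0.05. The first comparison takes Dll1-high and Dll1-low cells as replicates of a cell type. Dll1-high and Dll1-low cells were compared by their difference alone, over probes well above background on at least 1 array. The fits were tested on simulated data with independent noise for each probe and array. Those data had no effect of slide or row and no outlying array, so the test does not cover such effects.

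The genes and lists were chosen with earlier results of these data known. The 9 genes, Dll1 and every list gene called in a comparison of macrophages or cell types, or 2-fold apart between states, are named, with at most 8 per list. Bmf and Ltb were named as the genes closest in profile, each minus its own mean, to a member called and at least 2-fold apart. Replicate numbers of KO and WT arrays deviated together (correlation 0.576 over 34926 probes), and the number goes with the row of the slide. The labels tie no number to a shared animal, litter or batch, and there are only 2 pairs, so the main design has no block, and the fit with one is given beside it. Alternatives were the processed signals, the authors' table, median centring, Cy5 alone, no filter on dim probes, each array left out, 4 group means, a replicate block, and the mean of a gene's probes.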

Additional observations from a re-analysis of the deposited data

Results flagged for a closer look

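In 2 of 12 member probes with a value on all 4 macrophage arrays, 1 array lay far from the other 3 relative to their whole range. The brighter Aph1a probe read -0.573 on KO replicate 1, with a gap to the nearest array that was 0.929 of the range. The Lfng probe read 0.653 on KO replicate 2, with a gap of 0.838 of the range. Chance marks about 1 in 20 such groups.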

How the results depend on the processing

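Of all probes, 3454 were called between the CD24+ CD29-high cells and macrophages. There were 1489 with the scanner software's processed signals, 1499 with the authors' table, 1368 with median centring, 358 to 8542 with 1 array left out (highest without WT replicate 1) and 0 with 4 group means, where 2 degrees of freedom remain. Probes 2-fold apart between Dll1-high and Dll1-low cells numbered 77, but 2044 with processed signals and 2045 with the authors' table. No probe was called between KO and WT under any alternative. Between cell types, median centring gave 0.40 for Aph1a, a change of sign, -0.075 for Adam10, -0.66 for Adam17, -0.78 for Psen2, -0.16 for Lfng, 1.23 for Rfng and 0.57 for Mib1. Processed signals gave 1.02 for Ncstn, -0.80 for Lfng, -0.105 for Aph1a and 0.23 for Mib1, and Cy5 alone gave 0.30 for Rfng and 0.32 for Mib1, and Mib1 ranged from -0.29 to 0.24 with 1 array left out, below 0 without the Dll1-high array (-0.06) or WT replicate 1 (-0.291). Between KO and WT, 18 of 98 values for the 9 genes changed sign. Ncstn was 0.064 with processed signals and with the authors' table. Under median centring the median over all probes was 0.394 in place of -0.071, and the values were 0.77 for Psen2, 0.875 for Aph1a and 0.89 for Rfng. Cy5 alone gave 0.024 for Ncstn, 0.14 for Aph1a, 0.195 for Rfng and -0.69 for Mib1. With 1 array left out, Adam10 ranged from -0.35 to 0.82, Adam17 from -0.53 to 1.84, Psen2 from -0.95 to 0.37, Ncstn from -0.17 to 0.07, Mfng from -0.24 to 1.39 and Mib1 from -0.01 to 1.43. Psen2 was above 0 without KO replicate 1 (0.37) or WT replicate 2 (0.10), Ncstn without KO replicate 2 (0.074) or WT replicate 1 (0.02), and the others were below 0 without WT replicate 1. The replicate block, which pairs KO and WT arrays by number, gave -0.24 for Mfng, kept the sign of the other 8 genes, and left 0 probes called, with 207 against 50 at an unadjusted p under 0.05. Between Dll1-high and Dll1-low cells, Ncstn was 0.003 with Cy5 alone, and the mean of all probes gave -0.27 for Mfng and -0.24 for Rfng. Of the named list genes between cell types, none changed sign, and calls held in 11 of 12 alternatives for Eogt, 10 for Adam8 and Adam19, 8 for Tspan33, 7 for Jag2 and 6 for Bace1, Dtx2, Epn1 and Dnm2. The number of arrays limits all of this, and dim spots on the macrophage arrays limit Ncstn, Mib1 and the other Rfng probe.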
